A study of Mus musculus with 9 samples.

Results

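The synaptonemal complex is the protein zipper that joins homologous chromosomes along their length during the prophase of the first meiotic division. Its central region is built by the 6 genes described here, Sycp1, Syce1, Syce2, Syce3, Tex12 and 4930447C04Rik, the last also named Six6os1. SYCP1 forms the transverse filaments that span the gap between the chromosome axes, and the other proteins form the central element that holds the filaments together and lets them extend along the chromosome. Loss of any of these proteins in mice stops synapsis and leaves the animals infertile. The genes were taken by name, and all 6 were found among the 23386 genes of the expression table, in 8 of its 29661 rows.

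Testes were profiled by RNA-seq on postnatal day 10 in 3 Lin28a knockout libraries and 3 wild-type libraries by their labels, all of strain C57BL/6. The sample titles of the first group carry the abbreviation cKO, and neither the promoter nor the cells in which a deletion would occur are given in the sources used here. The study's title concerns LIN28A, an RNA-binding protein of early germ cells, and the translation of meiotic transcripts, and 3 further samples of RNA bound to LIN28A were not analysed here. The authors' deposited table gives a single FPKM value for each group (a fragment count adjusted for transcript length and library size), so no spread between libraries stands beside any level, and library depth is unknown. On this scale levels can be compared between genes. The groups are called by the names of their columns: the case column, read from that name as the knockout, and the control column, read as wild type.

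Lin28a itself, the targeted gene (NM_145833), was at 23.4 FPKM in the case column and 8.82 FPKM in the control column of the authors' deposited table, a 2.66-fold difference with q = 0.00191. The targeted gene was higher where a knockout that removes its transcript would lower it. All directions given here therefore stand only on how the columns are named. Whole-table totals were close, with FPKM summing to 328509 in the case column and 325735 in the control column.

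The promoters of the 6 genes are shown first, because 4 of them share the same pair of short motifs. Windows of 250 bases before and 50 bases after each annotated start were taken from RefSeq (GRCm38.p6), which holds 8 windows for the 6 genes because Syce2 and Syce3 have more than 1 start. The letters searched, on both strands, were chosen with these promoters in view. CACGTG is the E-box, the site of MAX-containing dimers, among them the MGA and MAX pair of a repressor complex that silences germ cell genes in mouse embryonic stem cells. It is printed in capitals in the next 4 stretches of 28 bases, each on its gene's strand and 5′ to 3′.
Sycp1, chr3:102936178-102936205, minus strand: agagaacccggCACGTGggaagggaaat
Syce2, chr8:84872159-84872186, plus strand: gtttcattcagCACGTGctcggggcggg
Tex12, chr9:50561345-50561372, minus strand: cgcgagactgtCACGTGgctcgcgcgct
4930447C04Rik, chr12:72917920-72917947, minus strand: ctgtggcctacCACGTGgtgcgcggggt

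The E-box lay at nearly the same place in 3 of these promoters. Its first base was at -94 from the start in Sycp1, at -93 in Tex12 and at -88 from the more downstream start of Syce2, whereas in 4930447C04Rik it was at -171. The windows of Syce1 and Syce3 held none. Over all genes with a RefSeq promoter, 8.09% held CACGTG in a window of this length, and among the genes averaging 1 FPKM or more the share was 12.2%.

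The same 4 genes, and again not Syce1 or Syce3, held CNCCTCAG, a motif described for promoters bound by STRA8, the retinoic acid target needed to enter meiosis. Read on the gene's strand it appears in each case as CTGAGGNG, in capitals in the next 4 stretches. The share was 9.12% of all genes with a RefSeq promoter and 11.0% of those averaging 1 FPKM or more.
Sycp1, chr3:102936051-102936078, minus strand: ccaggaggttCTGAGGGGaagctcacgg
Syce2, chr8:84872209-84872236, plus strand: gcagagggcgCTGAGGCGggaaaagacg
Tex12, chr9:50561258-50561285, minus strand: tgctgcggctCTGAGGCGgcaggtcgtg
4930447C04Rik, chr12:72917728-72917755, minus strand: gaagagcggtCTGAGGAGaaagctgcgg

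These matches began at 33 bases after the start in Sycp1, at -39 in Syce2, at -7 in Tex12 and at 21 after the start in 4930447C04Rik, which had another match at 41. In Syce2 the match overlapped GCGGGAA, an E2F-type motif (other strand TTCCCGC), whose first base was at -34. Tex12 held that motif as well, at -145, and 10.3% of the genes averaging 1 FPKM or more did so. The longest self-complementary run found in more than 1 of the 6 genes was TCTCGCGAGA, of 10 bases, shared by Sycp1 and 4930447C04Rik. It was held by 1.22% of the genes averaging 1 FPKM or more. The 250 bases before the start of these 2 genes are printed on their own strand, the minus strand, with the E-box and the palindrome in capitals.
Sycp1, chr3:102936101-102936350: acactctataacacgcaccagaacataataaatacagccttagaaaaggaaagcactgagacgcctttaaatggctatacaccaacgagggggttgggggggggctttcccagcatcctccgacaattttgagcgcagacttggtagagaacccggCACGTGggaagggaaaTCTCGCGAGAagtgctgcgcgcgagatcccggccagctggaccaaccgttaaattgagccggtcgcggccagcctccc
4930447C04Rik, chr12:72917766-72918015: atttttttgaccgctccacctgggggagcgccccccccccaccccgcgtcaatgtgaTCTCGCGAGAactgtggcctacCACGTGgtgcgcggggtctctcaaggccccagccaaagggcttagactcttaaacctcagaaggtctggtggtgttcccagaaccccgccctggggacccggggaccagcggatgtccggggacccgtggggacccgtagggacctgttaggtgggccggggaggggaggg

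The palindrome lay before the E-box in 4930447C04Rik and after it in Sycp1, so the pair of motifs was not arranged alike. A match is a run of letters and was not tied to binding in these samples.

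**Figure D1:**
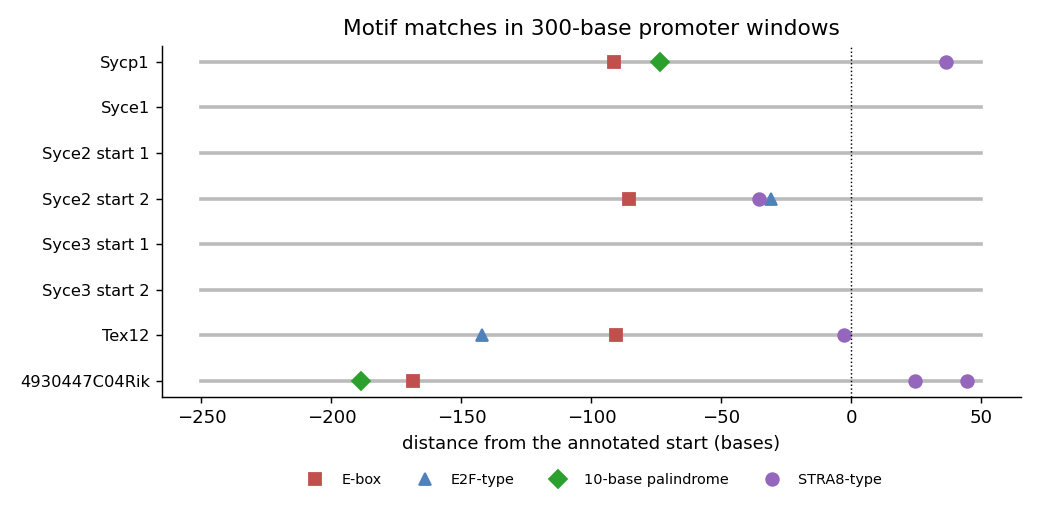
Matches to 4 motifs in the 8 promoter windows of the central region genes, by distance in bases from the annotated start (dotted line), with 1 grey line per window and starts of a gene numbered by their coordinate. The E-box squares of Sycp1, Tex12 and the second start of Syce2 fall between -94 and -83, and the windows of Syce1, of Syce3 and of the first start of Syce2 are empty.

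All 6 central region genes had lower FPKM in the case column, by 6.31% for Syce2 to 34.8% for Sycp1, and 0 of their 7 tested rows passed the authors' q-value threshold of 0.05, which 0.0514% of all 13629 tested rows passed. Their summed level was 188 FPKM in the case column and 242 FPKM in the control column, or 0.774-fold. Of all genes averaging 1 FPKM or more, 39.2% were lower in the case column. On the log2(FPKM + 1) scale the median of case minus control was -0.34 over the 6 genes and 0.034 over all 12664 genes kept. The share of rows called lower at that threshold was 0.00734%, which is 1 row. At an unadjusted p under 0.05, 0.631% of tested rows were lower, and among the central region genes 1 row, that of Sycp1, was.

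**Figure D2:**
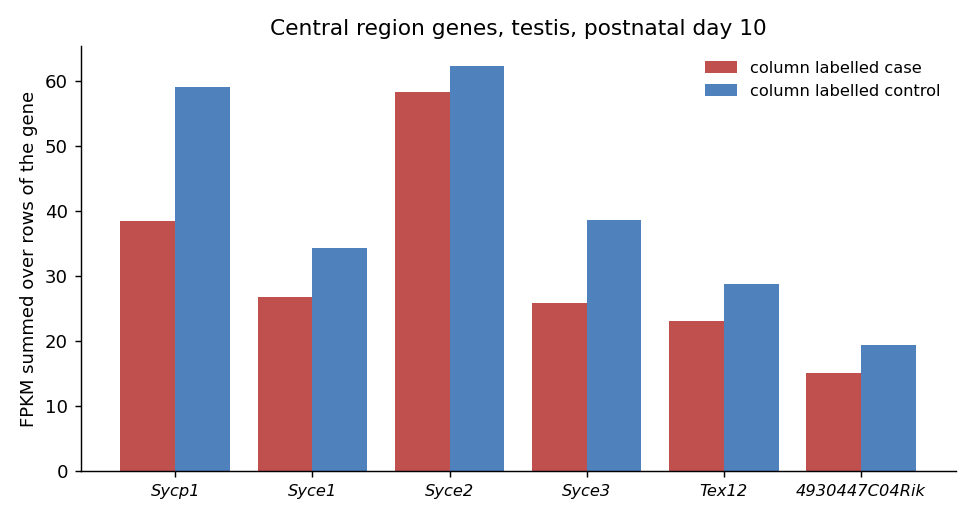
FPKM of the 6 central region genes, summed over the rows of each gene, in the case column (red, left) and the control column (blue, right), with 1 pooled value per bar and no error known. Every red bar is shorter than its blue neighbour, most in Sycp1, at 38.5 FPKM in the case column and 59.1 FPKM in the control column, and least in Syce2, at 58.3 FPKM in the case column and 62.2 FPKM in the control column.

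Sycp1 (NM_011516; mm10 chromosome 3, 102818499 to 102936100), the gene of the transverse filament, was at 38.5 FPKM in the case column and 59.1 FPKM in the control column of the authors' deposited table. The ratio was 0.652-fold, and the authors' deposited table lists p = 0.0102 for it, with a q-value of 0.999966. The authors' p-values were those of a normal distribution at their test statistic, so the ratio divided by that statistic gives the standard error their test used. For Sycp1 this implied standard error was 0.24 on the log2 scale around a log2 ratio of -0.62, and the 95% interval of the fold ran from 0.470 to 0.903. It was the single tested row of the 7 whose interval did not include equal levels.

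The central element genes had wider intervals. Syce3 (NM_001162882; chromosome 15, 89390174 to 89410503) encodes the small protein through which SYCP1 is linked to the central element. It was at 25.9 FPKM in the case column and 38.6 FPKM in the control column of the authors' deposited table. Its fold of 0.671 was close to that of Sycp1, but with an implied standard error of 0.46 the interval ran from 0.358 to 1.26 (p = 0.213 in the authors' deposited table). Another row of the gene, NM_001162880, was listed at 0 in both columns.

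Syce1 (NM_001143765; chromosome 7, 140777229 to 140787854), a coiled-coil protein of the central element, was at 26.8 FPKM in the case column and 34.3 FPKM in the control column of the authors' deposited table. The fold was 0.780 with an interval from 0.527 to 1.15 (p = 0.213 in the authors' deposited table). SIX6OS1, the product of 4930447C04Rik (NM_029444; chromosome 12, 72881109 to 72917765), binds SYCE1. Its gene was at 15.1 FPKM in the case column and 19.3 FPKM in the control column, 0.783-fold with an interval from 0.514 to 1.19 (p = 0.255 in the authors' deposited table). The ratios of these 2 genes were nearly equal, but each interval was much wider than the gap between them.

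Tex12 (NM_025687; chromosome 9, 50557148 to 50561268) encodes the partner with which SYCE2 forms the fibres of the central element. It was at 23.0 FPKM in the case column and 28.8 FPKM in the control column of the authors' deposited table, 0.799-fold with an interval from 0.454 to 1.41 (p = 0.437 in the authors' deposited table). Its partner Syce2 differed least of the 6, at 58.3 FPKM in the case column and 62.2 FPKM in the control column when its rows were summed, or 0.937-fold.

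**Figure D3:**
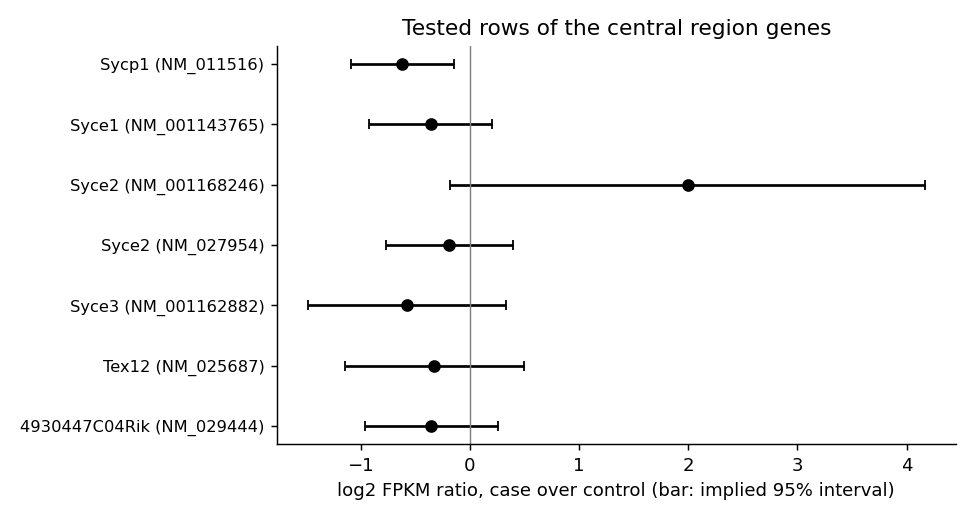
Log2 FPKM ratio, case over control, of the 7 tested rows of the central region genes (points), with the 95% interval implied by the authors' ratio and test statistic (bars). The bar of Sycp1 alone stays on 1 side of 0, and the low row of Syce2, NM_001168246, is the single point to the right of 0.

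The 2 tested rows of Syce2 had ratios on opposite sides of 1, neither with an interval that excluded equal levels. Its main row (NM_027954; chromosome 8, 84872111 to 84893921) was at 53.7 FPKM in the case column and 61.1 FPKM in the control column of the authors' deposited table (p = 0.530). The row NM_001168246 of the same locus was at 4.60 FPKM in the case column and 1.16 FPKM in the control column, 3.98-fold, with an interval from 0.885 to 17.9 (p = 0.0718 in the authors' deposited table). RefSeq assigns 2 more accessions with an empty name cell to Syce2, outside the name rule. NM_001168244 was at 7.16 FPKM in the case column and 10.1 FPKM in the control column, and the noncoding NR_031759 was at 17.4 FPKM in the case column and 17.0 FPKM in the control column. With all 4 rows, Syce2 stood at 82.9 FPKM in the case column and 89.3 FPKM in the control column, 0.928-fold. The main row alone stood at 0.879-fold, and taking it in place of the sum moved the difference in log2(FPKM + 1) to -0.18 from -0.092, so the size of the difference in Syce2 depended on which rows were taken.

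The table gives these rows the same interval as the 2 rows of Gcdh, glutaryl-CoA dehydrogenase, a mitochondrial enzyme of amino acid breakdown. Transcripts of 1 locus can share reads where they overlap, and overlap of Syce2 with Gcdh was not examined. The split between rows of Syce2, and between Syce2 and Gcdh, is therefore uncertain. Gcdh summed to 13.5 FPKM in the case column and 10.4 FPKM in the control column. None of the other 5 genes shared its interval with a row of another gene. Syce1l, a gene whose symbol marks it as similar to Syce1, had rows at 1.02 and 0.884 FPKM in the case column and at 1.50 and 0.843 FPKM in the control column, all with status FAIL and no usable p-value.

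The order of levels was nearly the same in both columns. In the case column it ran Syce2, Sycp1, Syce1, Syce3, Tex12 and 4930447C04Rik, and in the control column Syce3 stood above Syce1. With no value per library, neighbours in this order cannot be said to differ beyond their spread. Sycp1 made up 20.5% of the summed FPKM in the case column and 24.4% in the control column, while Syce2 made up 31.1% in the case column and 25.7% in the control column. Between the columns the share of each of the other 4 genes differed less, the most being Syce3 with 13.8% in the case column and 15.9% in the control column. All 6 genes were well expressed among the 12664 genes averaging 1 FPKM or more. By mean FPKM they ran from the top 8.21% for Syce2 to the top 38.2% for 4930447C04Rik.

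Most genes of like abundance had ratios nearer 1 than 5 of these 6 genes. Among the 6149 genes with a mean FPKM from 10 to 65, the median log2 ratio was 0.028 and the central 90% lay between -0.21 and 0.25. All the central region genes except Syce2, at -0.094, lay below that range. The log2 ratio was at or below that of Sycp1 in 23 of these genes (0.374%), below or equal to that of Syce3 in 27, and below or equal to that of Tex12 in 116 (1.89%). This ranks single genes within 2 pooled columns and is no measure of variation between animals. The tested rows in that range had a median implied standard error of 0.27, which is wide beside the central 90% of ratios. The intervals and p-values given here rest on such errors, so an interval that includes equal levels says little about a gene.

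The authors' errors set how large a difference had to be for a call. One more call would have needed a p of 2.93e-05, or 4.18 implied standard errors. For Sycp1 that is a 2.01-fold difference, for Syce1 2.31-fold, for the main row of Syce2 2.35-fold, for 4930447C04Rik 2.46-fold, for Tex12 3.34-fold and for Syce3 3.81-fold.

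Most genes on the other meiotic lists differed in the same direction. The lists take in regulators of meiotic entry and transcription as well as genes that act on chromosomes. Over 6 lists of meiotic genes 73 distinct genes averaged 1 FPKM or more, and 59 of them were lower in the case column, with a median difference of -0.27 in log2(FPKM + 1). Of the 63 with an authors' p-value for their main row, 0 passed the q-value threshold, 13 were lower at an unadjusted p under 0.05 and 0 were higher. Of all genes with such a p-value, 0.438% were lower and 0.386% higher at p under 0.05. The lists were drawn up with earlier results of these data known, so these counts are a description and no test.

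The chromosome axis, on which the central region is mounted, was the nearest in kind. Of 11 axis and cohesin genes 9 were lower, with a median of -0.42, and their summed level was 0.727-fold. Hormad1, a protein of unsynapsed axes, was at 15.6 FPKM in the case column and 29.8 FPKM in the control column (p = 0.00339 in the authors' deposited table). Sycp2, a lateral element protein, was at 15.3 FPKM in the case column and 24.9 FPKM in the control column (p = 0.00407 in the authors' deposited table). Smc1b, a meiotic cohesin subunit, was at 38.0 FPKM in the case column and 52.0 FPKM in the control column. The summed central region stood at 0.629 of the summed axis list in the case column and 0.590 in the control column, a ratio of 1.06. That ratio turned on Sycp3, a lateral element protein outside the rule for named genes and singled out after its values were seen. Sycp3 was at 69.2 FPKM in the case column and 124.7 FPKM in the control column, with status FAIL and no usable p-value. Without it the central region stood at 0.818 of the axis list in the case column and 0.848 in the control column, a ratio of 0.965, and the axis list itself at 0.802-fold.

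Double-strand break genes were lower in 9 of 9, with a median of -0.43. Prdm9, which marks the sites of recombination, was at 4.69 FPKM in the case column and 8.27 FPKM in the control column (p = 0.0181 in the authors' deposited table). Zcwpw1, a reader of the histone marks that PRDM9 leaves, was at 50.5 FPKM in the case column and 68.6 FPKM in the control column, and Spo11, which makes the breaks, was at 0.999 FPKM in the case column and 2.75 FPKM in the control column. Strand exchange genes were lower in 11 of 13, with a median of -0.28. Rad51ap2 was at 1.53 FPKM in the case column and 4.65 FPKM in the control column (p = 0.000598 in the authors' deposited table). Meiob, of a single-strand DNA-binding complex, was at 1.92 FPKM in the case column and 6.82 FPKM in the control column. The authors' deposited table lists p = 0.000601 for Meiob, and a q-value of 0.492 for both Rad51ap2 and Meiob. Dmc1, the meiotic recombinase, was at 14.2 FPKM in the case column and 24.9 FPKM in the control column. Its p in the authors' deposited table was 0.00641.

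Crossover genes were lower in 7 of 10, with a median of -0.31, which was -0.090 over the genes averaging 5 FPKM or more. Hfm1, a helicase, was at 4.24 FPKM in the case column and 6.49 FPKM in the control column. Cntd1, which designates crossovers, was at 1.57 FPKM in the case column and 3.21 FPKM in the control column, and Tex11, an X-linked gene of crossover formation, at 38.7 FPKM in the case column and 50.4 FPKM in the control column. Genes of telomere attachment and synapsis checks were lower in 14 of 16, with a median of -0.26, or -0.13 over the genes averaging 5 FPKM or more. Spdya, which activates CDK2 at telomeres, was at 3.09 FPKM in the case column and 7.55 FPKM in the control column (p = 0.00693 in the authors' deposited table). Fbxo47, needed to keep the synaptonemal complex stable, was at 2.90 FPKM in the case column and 7.05 FPKM in the control column. Terb1, of the telomere tether, was at 2.08 FPKM in the case column and 4.47 FPKM in the control column. The authors' deposited table lists p = 0.00752 for Fbxo47 and p = 0.0135 for Terb1.

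Regulators of meiotic entry and transcription differed least of the 6 lists, with 10 of 15 lower and a median of -0.037. That list mixes parts of the repressor complex named with the E-box (Max, Mga, E2f6, L3mbtl2 and Pcgf6), between -0.066 and 0.089, with other regulators. Those others ran from -0.52 for Meioc to 0.051 for Dmrt1. Meioc, which with YTHDC2 sustains the meiotic programme, was at 17.9 FPKM in the case column and 26.1 FPKM in the control column (p = 0.0301 in the authors' deposited table). Ythdc2 was at 8.32 FPKM in the case column and 10.6 FPKM in the control column. Stra8 was at 68.1 FPKM in the case column and 86.3 FPKM in the control column, a ratio of 0.789 that lay close to those of Syce1, Tex12 and 4930447C04Rik. The summed central region was 2.76 times Stra8 in the case column and 2.81 times in the control column.

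**Figure D4:**
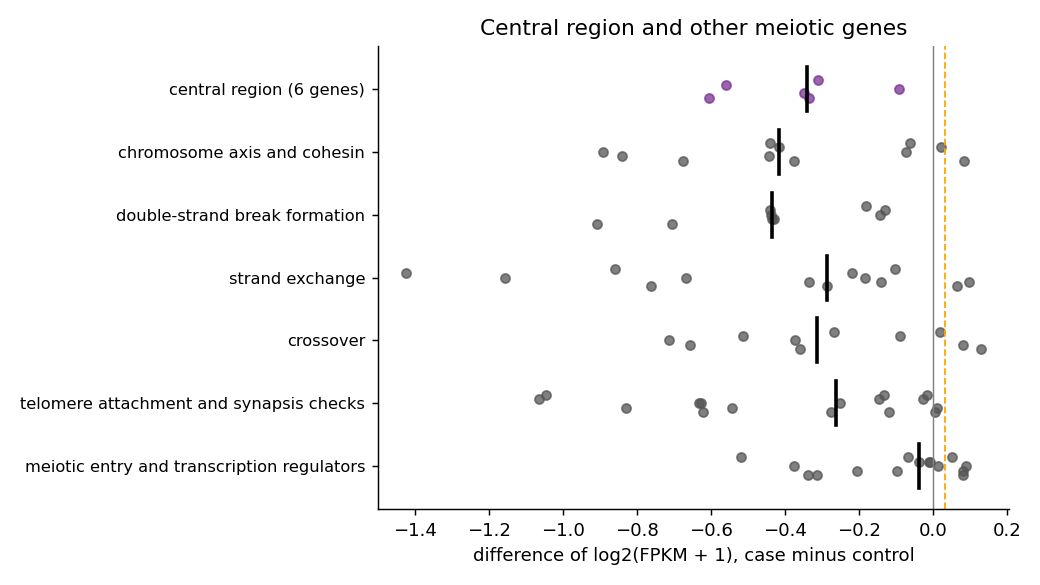
Difference of log2(FPKM + 1), case minus control, for each gene averaging 1 FPKM or more in the central region (purple) and in 6 other lists of meiotic genes (grey), with black bars at the medians and a dashed orange line at the median of all genes, 0.034. The central region genes lie between -0.61 and -0.092, within the span of the axis genes. The regulators of meiotic entry and transcription run from -0.52 to 0.089, with a median near 0.

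By the distance between genes over log2(FPKM + 1) in the 2 columns, the 5 genes nearest to Sycp1 were Pwwp3b, Stag3, Smc1b, Id2 and Smc4. Stag3 and Smc1b are subunits of meiotic cohesin, and Smc4 is a condensin subunit. Stag3 was at 40.1 FPKM in the case column and 52.4 FPKM in the control column, and Smc4 at 42.2 FPKM in the case column and 52.4 FPKM in the control column. Pwwp3b was at 39.2 FPKM in the case column and 53.7 FPKM in the control column, with status FAIL in every row and no usable p-value. Id2, an inhibitor of helix-loop-helix factors, was at 38.7 FPKM in the case column and 51.9 FPKM in the control column. The likeness rests on 2 pooled values per gene and is largely one of level. None of the 5 had a ratio as low as the 0.652-fold of Sycp1. Theirs ran from 0.730-fold for Pwwp3b to 0.805-fold for Smc4.

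Markers of whole cell types moved beside these genes, and in bulk testis fewer meiotic cells and less RNA per cell cannot be told apart. General germ cell markers were lower in 5 of 8, with a median of -0.080 and summed levels of 462 FPKM in the case column and 510 FPKM in the control column, and none was at 0. That median was -0.16 with no minimum level, and again at a mean of 5 FPKM or more. Ddx4, an RNA helicase of all germ cells at this age, was at 72.6 FPKM in the case column and 72.8 FPKM in the control column, and Dazl, a germ cell RNA-binding protein, at 192 FPKM in the case column and 222 FPKM in the control column. The summed central region was 2.58 times Ddx4 in the case column and 3.33 times in the control column. Relative to the summed germ cell markers it was 0.406 in the case column and 0.475 in the control column, or 0.855-fold, against 0.774-fold without this scaling.

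Markers of earlier germ cells had medians near 0. Markers of undifferentiated spermatogonia, on a list that includes Lin28a, were lower in 3 of 10, with a median of 0.042 and summed levels of 91.3 FPKM in the case column and 75.9 FPKM in the control column. Without Lin28a the sums were 67.9 FPKM in the case column and 67.0 FPKM in the control column, 1.01-fold. Nanos2 and Eomes were left out for a mean below 1 FPKM, and with no minimum the median was again 0.042. Nanos2 was at 0.540 FPKM in the case column and 1.09 FPKM in the control column, and Eomes at 0.339 FPKM in the case column and 0.273 FPKM in the control column. Zbtb16 was at 16.8 FPKM in the case column and 14.9 FPKM in the control column, and Gfra1, the GDNF receptor, at 6.83 FPKM in the case column and 6.99 FPKM in the control column. Differentiating spermatogonia markers were lower in 6 of 9, with a median of -0.049 and summed levels of 287 FPKM in the case column and 337 FPKM in the control column. Prss50, singled out after its values were seen, carried much of that difference, at 22.2 FPKM in the case column and 47.0 FPKM in the control column (p = 0.000214 in the authors' deposited table), and without it the list summed to 264 FPKM in the case column and 290 FPKM in the control column, 0.913-fold. Kit, the receptor of that stage, was at 29.0 FPKM in the case column and 30.0 FPKM in the control column, with status FAIL in every row. The lists share genes and are not separate observations. Stra8, Sohlh1 and Sohlh2 are also among the regulators of meiotic entry and transcription, as is Dazl of the general germ cell markers. Nanos3 is on the general germ cell list and on that of undifferentiated spermatogonia.

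Many somatic markers had higher values in the case column. Leydig cell markers were higher in 8 of 8, with a median of 0.34 and summed levels of 386 FPKM in the case column and 305 FPKM in the control column. Of these, Cyp17a1 was at 26.0 FPKM in the case column and 17.8 FPKM in the control column, and Cyp11a1 at 45.7 FPKM in the case column and 32.4 FPKM in the control column. Of all genes kept, 60.8% were higher in the case column. Peritubular and stromal markers were higher in 8 of 8 (861 FPKM in the case column and 756 FPKM in the control column), with a median of 0.19. Among them Acta2 was at 318 FPKM in the case column and 274 FPKM in the control column, and Myh11 at 44.5 FPKM in the case column and 39.6 FPKM in the control column. Endothelial markers were higher in 6 of 6 (40.4 FPKM in the case column and 33.3 FPKM in the control column), with a median of 0.27. Pecam1, with status FAIL in every row, was at 5.50 FPKM in the case column and 4.40 FPKM in the control column. Cdh5 was at 16.2 FPKM in the case column and 14.0 FPKM in the control column.

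Sertoli cell markers were higher in 7 of 10, with a median of 0.092 and summed levels of 3566 FPKM in the case column and 3565 FPKM in the control column. The sum rested on Clu, clusterin, at 2028 FPKM in the case column and 2251 FPKM in the control column, and without it the list summed to 1538 FPKM in the case column and 1314 FPKM in the control column, 1.17-fold. Sox9 was at 35.1 FPKM in the case column and 30.5 FPKM in the control column, and Amh at 128 FPKM in the case column and 108 FPKM in the control column. Macrophage markers were lower in 6 of 6 (63.4 FPKM in the case column and 81.2 FPKM in the control column), with a median of -0.15. Ptprc, also on that list but left out for a mean below 1 FPKM, went the other way. It was at 0.470 FPKM in the case column and 0.406 FPKM in the control column. Csf1r was at 6.14 FPKM in the case column and 6.62 FPKM in the control column, and Adgre1 at 2.18 FPKM in the case column and 2.56 FPKM in the control column. The germ cell and Sertoli markers of testis were thus present in both columns. The part of these cell type differences in the lower central region values was not tested.

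**Figure D5:**
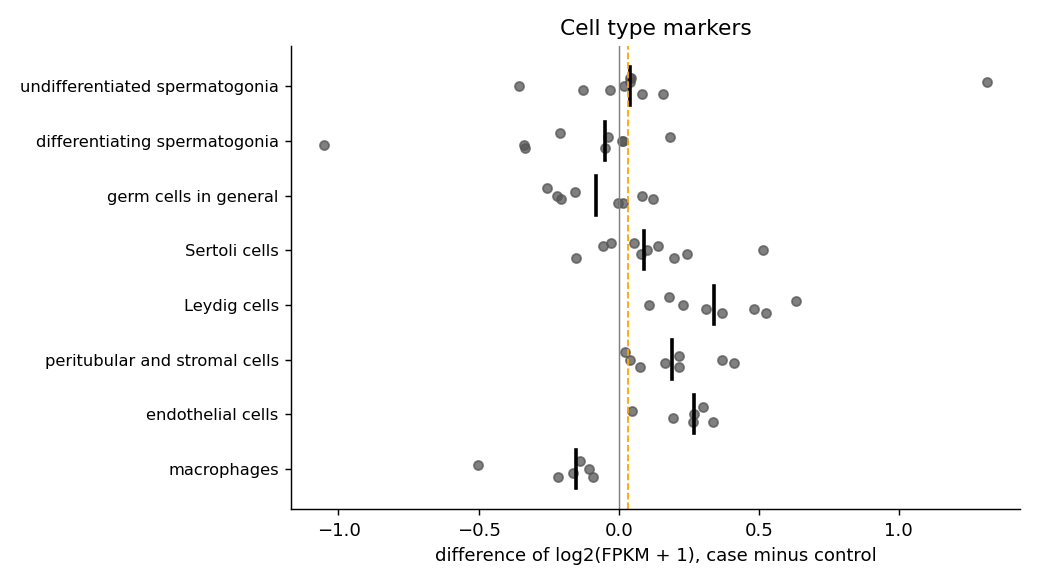
Difference of log2(FPKM + 1), case minus control, for each cell type marker averaging 1 FPKM or more (grey points), with black bars at the list medians and a dashed orange line at the median of all genes, 0.034. Leydig, peritubular and stromal, and endothelial markers all lie to the right of 0, and the point far to the right among undifferentiated spermatogonia is Lin28a.

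The folds of the 6 genes are set beside their motifs as a description only, and no relation between them was tested. The 2 genes without an E-box or a STRA8-type match, Syce3 and Syce1, stood at 0.671-fold and 0.780-fold. The 4 genes that held both stood between 0.652-fold for Sycp1 and 0.937-fold for Syce2. Max, Mga, E2f6, L3mbtl2 and Pcgf6, which encode parts of the repressor complex named with the E-box, lie outside the rule for named genes. Their folds of case over control were between 0.951 and 1.07.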

How the data were processed

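RNA from testes on postnatal day 10 was sequenced. TopHat2 version 2.0.9 and build mm10 are named per the submitters' processing notes. The authors deposited, per the file headers, 1 FPKM value per group of 3 libraries for each RefSeq accession, with the log2 of control over case, the p-value and q-value of their test, and a status. The quantification program is not stated there. Over 13586 tested rows above 0 in both columns, p matched a normal distribution at their statistic to within 2.77e-06, which gave the implied standard errors and 95% intervals. These are only as good as the authors' error model.

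Symbols came by accession from RefSeq, GRCm38.p6 (29071 of 29660 matched). FPKM was summed per gene, a mean of 1 was the minimum, and a pseudocount of 1 was added before log2, which shrinks differences of low genes. The planned limma fit needs values per library and was not run. Calls are the authors' at q under 0.05, a Benjamini-Hochberg adjustment over 13629 rows with status OK. Named genes were the 6 central region genes, Lin28a, 3 genes per meiotic list by smallest p, the first 2 kept genes per marker list and the 5 nearest to Sycp1. Genes and lists were chosen with earlier results of these data known. In the crossover list Shoc1, Spo16, Rnf212 and Rnf212b matched no row, and an alias listed for Spo16 was ignored because RefSeq gives it to another gene. Starts in the table were read as counting from 0, and 1 was added. The labels do not say if libraries came from separate animals. Scripts were tested on simulated data (Python 3.11.15, numpy 2.4.6, pandas 2.3.3, scipy 1.17.1, matplotlib 3.10.9).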

Additional observations from a re-analysis of the deposited data

How the results depend on the processing

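All 6 central region genes stayed lower in the case column under each pseudocount, choice of rows and scaling run, between -0.64 and -0.091 on the log2(FPKM + pseudocount) scale. Most of these genes have a single row and the scaling factors were 1.02 and 1.01, so little room was left for a change of sign. Of 105 alternative log2 values, 10 moved by over 1.5 times and 1 of these changed sign. Syce2 went to -0.18 from -0.092 with its highest row alone, or without its low row. The latter setting kept only rows lower in the case column, so its sign was fixed in advance. The median of general germ cell markers was -0.16 in place of -0.080 with no minimum and at 5 FPKM or more. Chosen after seeing the data, leaving out 1 gene moved the log2 difference of a list's sum to 0.23 for Sertoli markers without Clu, against 0.00033, to 0.018 for undifferentiated spermatogonia without Lin28a, against 0.26, and to -0.13 for differentiating spermatogonia without Prss50, against -0.23. The log2 ratio of central region over axis sums, case over control, was -0.052 without Sycp3, against 0.090. The summed difference of -0.37 became -0.48 without Syce2. At an unadjusted p under 0.05, chosen after seeing the data, 1 row of the central region passed in place of 0. At a mean of 5 FPKM or more, where low genes leave the lists, the median of crossover genes was -0.090 and that of telomere attachment and synapsis genes -0.13, against -0.31 and -0.26. Median-of-ratios scaling divided the ratio of the columns by 1.02. No library could be left out, and no paired analysis was possible because the table holds only pooled columns.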

Other observations

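Promoters of other meiotic genes held the 4 motifs in other proportions, counted in the same 300-base windows and given as a description. The E2F-type letters GCGGGAA were found in 6 of 11 strand exchange genes and 5 of 11 axis and cohesin genes, against 2 of 6 central region genes and 10.3% of the genes averaging 1 FPKM or more. The E-box CACGTG, held by 4 of 6 central region genes, was in 3 of 11 axis and cohesin genes and 1 of 11 strand exchange genes. The STRA8-type letters CNCCTCAG were in 4 of 12 regulators of meiotic entry and 4 of 13 genes of telomere attachment and synapsis checks, but in 1 of 11 genes of the axis and of strand exchange each. These sets are small, and the letters were chosen with the promoters of the central region genes in view.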
